A study of Mus musculus with 6 samples.

Results

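Metabotropic glutamate receptors are G-protein-coupled receptors that respond to the main excitatory transmitter of the cortex, and 6 of their genes, Grm2, Grm3, Grm4, Grm5, Grm7 and Grm8, were followed in mouse prefrontal cortex. The members were chosen by gene symbol: the Ensembl identifiers of the deposited table were matched to GENCODE M21, and all 6 symbols had 1 row each among 17889 rows. All 6 were above the filter on low values and are among the 14969 genes tested. The tissue came from juvenile mice (postnatal day 28) of the strain C57BL/6J, with 3 wild-type samples (WT) and 3 samples titled Hetero whose genotype is given as Cyfip2 mutant. The labels name no other allele, drug or treatment, do not say which part of Cyfip2 is altered, and do not say that each sample is a separate animal, so every p-value rests on sample-to-sample spread of unknown, possibly technical, origin. Values are normalized counts, that is, sequencing counts per gene that the authors had scaled between samples.

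Group I receptors, here Grm5, signal through Gq to phospholipase C, inositol trisphosphate and calcium. Group II (Grm2 and Grm3) and group III (Grm4, Grm7 and Grm8) signal through Gi and Go, which lower adenylyl cyclase activity and act on ion channels. Group I receptors sit mostly around the postsynaptic density and drive a form of long-term depression that needs local protein synthesis, a process tied to FMRP and its CYFIP partners. Group II and III receptors are known mostly as presynaptic brakes on transmitter release, and Grm3 is also expressed by astrocytes. Other genes of the family are not analysed here, so group I is represented by 1 gene and every share below is a share of these 6 genes alone.

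How far the messages differ bears on whether reads can be assigned to 1 member, so the coding sequences were compared in GENCODE M21 on GRCm38, using 1 principal transcript per gene. Over all aligned coding bases Grm2 and Grm3 were 65.8% identical, and pairs within group III were 67.4% to 68.3% identical. Pairs from different groups shared between 50.2% and 55.7% of their bases. None of the 15 pairs of these transcripts shared a run of 31 bases.

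The ends of the coding sequences are shown because the tails of these receptors bind scaffold proteins. The last 60 coding bases before the stop codon follow, with the codons of the last 4 residues in capitals.
Grm5: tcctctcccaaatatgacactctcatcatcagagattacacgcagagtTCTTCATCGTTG
Grm2: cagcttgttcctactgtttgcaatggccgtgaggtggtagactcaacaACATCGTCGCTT
Grm3: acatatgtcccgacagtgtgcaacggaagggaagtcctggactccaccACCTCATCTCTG
Grm4: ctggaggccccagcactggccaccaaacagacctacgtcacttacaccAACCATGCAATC
Grm7: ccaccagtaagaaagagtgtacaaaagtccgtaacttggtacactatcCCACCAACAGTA
Grm8: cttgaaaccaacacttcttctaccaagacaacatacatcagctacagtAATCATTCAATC
In Grm5 they run at chr7:88130807-88130866, in Grm2 at chr9:106645021-106645080, in Grm3 at chr5:9485771-9485830 and in Grm7 at chr6:111501518-111501577. In Grm4 they are split between chr17:27431332-27431344 and chr17:27426787-27426833, and in Grm8 between chr6:27285735-27285747 and chr6:27275648-27275694, so a splice junction falls inside the tail of both. The coding sequence of Grm5 has 3609 bases, whereas those of the other members have 2616 to 2766. Grm7 and Grm8 also have transcripts with other ends in the annotation, and a gene total does not tell these apart.

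Several facts of the whole set of libraries touch these genes. The estimated depth lay between about 25459265 and 43881193 reads per library, with Hetero 3 the deepest. Hetero 3 also stood farthest from the samples of its own group: its smallest median absolute log2 difference to one of them was 0.1498, against 0.0945 to 0.1145 for the other samples. Cyfip2 itself had 31933, 30496 and 27503 normalized counts in WT and 20959, 21237 and 18285 in Hetero, so the log2 change was -0.57 ± 0.073 (SE), at an adjusted p of 0.31 in limma. Cortical excitatory neuron markers were abundant in every sample, with Slc17a7, the vesicular glutamate transporter of these cells, between 51008 and 58032 normalized counts. Among markers of neighbouring tissue, Drd2, a receptor gene of striatal neurons, was low, with 18.5 to 25.2 normalized counts. Gabra6, a marker of cerebellar granule neurons, where Grm4 is abundant, was at 0 in WT 2 and WT 3. Its highest value was 11.4, in Hetero 3, which also had the highest Grm4 count, 1163. A link between these values was not tested. No marker examined went against the labelled tissue.

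To compare members with each other, each normalized count was divided by the length of the gene's merged exons in kilobases. On this scale Grm3 had the highest level, 899 ± 102 normalized counts per kilobase (SD, n = 6), and was higher than 89.9% of tested genes with a length. Grm2 followed with 548 ± 40.3 and Grm5 with 380.1 ± 46.6 normalized counts per kilobase. Grm7 had 309 ± 52.9, Grm4 had 166 ± 15.8 and Grm8 had 42.6 ± 4.33 normalized counts per kilobase. Grm8 thus stood above only 25.0% of tested genes. This order was the same inside each of the 6 samples. The ranges of neighbours over samples did not overlap, except for Grm5 and Grm7: the lowest Grm5 level, 310 per kilobase, was below the highest Grm7 level, 364 per kilobase, although Grm5 was 1.15 to 1.36 times Grm7 within every sample.

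Group II made up most of the summed level. Its share was 59.0%, 64.3% and 65.0% in WT 1 to 3 and 59.7%, 59.2% and 63.1% in Hetero 1 to 3. Group III, which damps release at presynaptic terminals, held 23.0%, 20.97% and 20.2% in WT and 22.9%, 23.4% and 22.1% in Hetero. Grm5, standing for group I, held 18.0%, 14.7% and 14.8% in WT and 17.4%, 17.4% and 14.9% in Hetero. The shares of all 3 receptor groups overlapped between the genotypes. The sizes depend on the length that is used: group II had a mean share of 61.7% with merged exons, 54.2% with the longest coding transcript, 47.8% with the median coding transcript and 43.3% without division by length. With the median transcript Grm2 held more than Grm3, with means of 27.7% and 20.1%, and without division by length Grm5 was the largest member at 30.96%. Grm3 has a single annotated transcript of 3.05 kilobases, while the merged exons of Grm5 cover 10.2 kilobases.

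**Figure D1:**
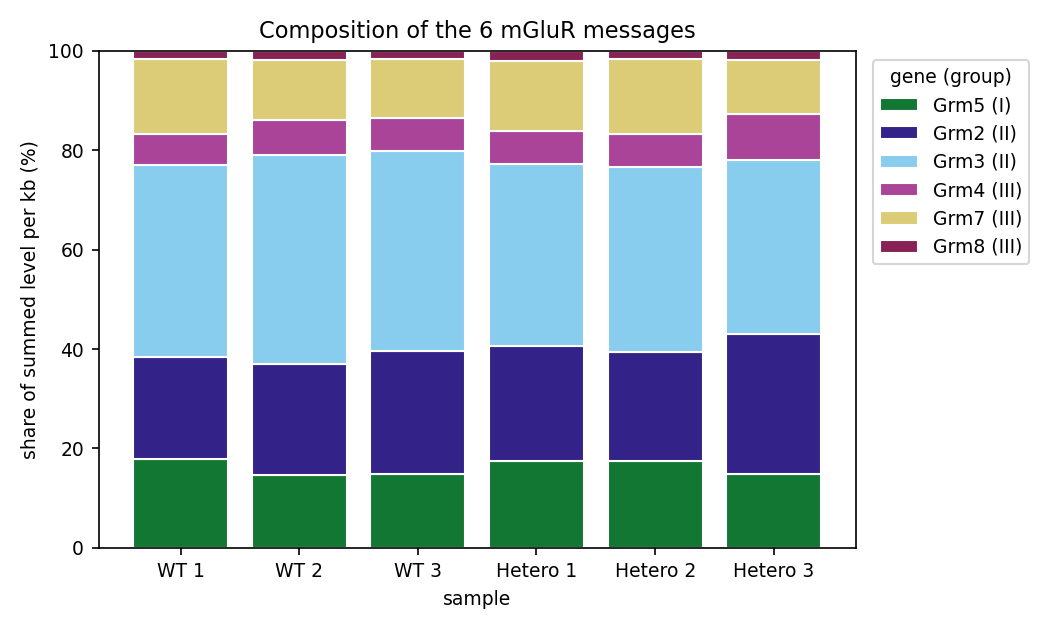
Share of each gene in the summed normalized count per kilobase of merged exons of the 6 genes (y axis, percent) in each sample (x axis); colours mark genes, with the receptor group in brackets. Grm3 and Grm2 together fill 59.0% to 65.0% of each bar, and the Grm3 part is smaller in all 3 Hetero samples (34.8% to 37.1%) than in all 3 WT samples (38.6% to 42.0%).

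The comparison of genotypes asked whether any of these messages differs between Hetero and WT cortex. None of the 6 passed an adjusted p under 0.05 in limma over all 14969 genes, and neither did any other gene (0%). At an unadjusted p under 0.05 there was 1 member, Grm3, where 3.83% of all tested genes are below that value. Grm3 was also the 1 member whose groups did not overlap, where 8.72% of all tested genes had groups apart (4.32% lower and 4.4% higher in Hetero, each as a share of all tested genes). The fitted change was below 0 for 4 of the 6 members, with a median of -0.035, where 50.9% of all tested genes were below 0, with a median of -0.0019.

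Grm5 (ENSMUSG00000049583, chromosome 7, 87584168 to 88134907, plus strand) encodes the Gq-coupled receptor that binds the Homer scaffold. It had 4441, 3643 and 3676 normalized counts in WT and 4199, 4237 and 3173 in Hetero. The highest sample was in WT and the lowest in Hetero, but the other 2 Hetero samples were above the other 2 WT samples, so the groups overlapped. WT had a mean of 3920.1 ± 452 and Hetero one of 3869.6 ± 604 (SD over 3 samples). Their log2 change was -0.025 ± 0.12 (SE). The 95% interval of the Hetero/WT ratio was 0.809 to 1.194, so differences within it in either direction are not excluded. The sign rests on single samples: without Hetero 3 the change was 0.11 and without WT 1 it was 0.068.

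In group II the members did not have the same pattern. Grm2 (ENSMUSG00000023192, chromosome 9, 106643095 to 106656082, minus strand), a presynaptic autoreceptor gene of excitatory neurons, had 2402, 2636 and 2937 normalized counts in WT and 2665, 2569 and 2874 in Hetero. Every Hetero value lay inside the range of WT. The log2 change was 0.027 ± 0.080 (SE), with a Hetero/WT ratio between 0.8997 and 1.15 at 95% confidence. Its sign turned without WT 1 (-0.043) or Hetero 3 (-0.018).

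Grm3 (ENSMUSG00000003974, chromosome 5, 9485541 to 9725170, minus strand), the group II gene that neurons and astrocytes both use, had 2842, 3089.7 and 2981 normalized counts in WT. In Hetero it had 2628, 2690.3 and 2212. All 3 Hetero samples were below all 3 WT samples, with a gap from 2690.3 to 2842 and Hetero 3 well below the rest. WT had a mean of 2971 ± 124 and Hetero one of 2510.4 ± 259.9 (SD over 3 samples), so the fitted Hetero level was 0.842 of the WT level (95% interval 0.744 to 0.954). The log2 change was -0.25 ± 0.080 (SE), with an unadjusted limma p of 0.012 and an adjusted p of 0.9996, so it did not pass, and 0.855% of tested genes had a smaller p. An exact permutation test, two-sided, could reach no less than p = 0.1 with 3 samples a group, and it gave that value. Without Hetero 3 the log2 change was -0.16.

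The share of Grm3 in the 6 genes was 38.6%, 42.0% and 40.3% in WT and 36.6%, 37.1% and 34.8% in Hetero. This share did not overlap between genotypes with any of the 4 ways to treat length. The ratio of Grm2 to Grm3, both per kilobase, was 0.527, 0.531 and 0.614 in WT and 0.632, 0.595 and 0.809 in Hetero, which overlapped because Hetero 2 was below WT 3. These ratios carry the same Grm3 difference as above and are no separate evidence of it.

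Because Grm3 is used by glia as well as neurons, markers of glia and then of other cells are given beside it, with the reservation that in bulk tissue fewer cells of a type and less RNA per cell cannot be told apart. Of 14 astrocyte markers 11 had a fitted change below 0, with a median of -0.062, and 0 passed. Summed, they had 205758 to 232437 normalized counts in the WT samples and 200818 to 215229 in the Hetero samples. Slc1a3, a glutamate transporter of astrocytes, had 17697, 20739 and 21145 normalized counts in WT and 17412, 17562 and 17471 in Hetero. All Hetero samples were lower, though WT 1 by a narrow margin. It was the only 1 of the 14 astrocyte markers whose groups did not overlap, where 8.72% of all tested genes had groups apart. Of 10 oligodendrocyte precursor markers 10 had a fitted change below 0, with a median of -0.22. For 4 of these 10 the groups did not overlap, against 8.72% of all tested genes. At an unadjusted limma p under 0.05, 4 (40%) were lower in Hetero, where 2.17% of all tested genes were. Their sum was 12594 to 15399 normalized counts in WT against 10838 to 13335 in Hetero. Of 10 mature oligodendrocyte markers 9 were below 0, with a median of -0.076, and their sums of 95809 to 154563 normalized counts in WT spanned those in Hetero, 101368 to 132770.

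Microglial, neuronal and meningeal lists also leaned to one side or differed in summed level. All 10 microglial markers had a fitted change below 0, with a median of -0.098. Their summed counts overlapped, at 13667 to 15271 in WT and 12894 to 14220 in Hetero. Their mean log2 deviation, taken for each marker from its own mean over the 6 samples, was lower in every Hetero sample, but by a narrow margin: the highest Hetero sample was at 0.0179 and the lowest WT sample at 0.0181. Of 9 upper layer neuron markers 8 were above 0, with a median of 0.096. Their mean log2 deviation was higher in every Hetero sample, at 0.040 to 0.11 against -0.12 to 0.022 in WT, while their summed counts overlapped. Of 10 deep layer neuron markers 7 were below 0, with a median of -0.12. Their sums did not overlap, at 11919 to 12389 normalized counts in WT and 10706 to 11141 in Hetero. Their mean log2 deviation did overlap, at -0.082 to 0.18 in WT and -0.15 to -0.021 in Hetero. The sums of 7 cortical excitatory markers were also apart, at 190158 to 198110 in WT and 178402 to 184972 in Hetero. These sums rest mostly on Camk2a, with 114153 to 129923 normalized counts, and Slc17a7, with 51008 to 58032. Of the 7 markers 4 had a fitted change above 0. The mean log2 deviation of these markers overlapped, at -0.00045 to 0.0039 in WT and -0.021 to 0.013 in Hetero. Of 10 interneuron markers 7 were above 0 and 3 below, with a median of 0.057. Both their sums and their mean log2 deviation overlapped between the genotypes. Of 8 meningeal markers 7 were above 0, with a median of 0.22 and overlapping sums. None of these glial, neuronal and meningeal markers passed the adjusted threshold in limma, and none was at 0 in any sample. The part of these cells in the Grm3 difference was not tested.

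The genes of group III differed in how much they varied. Grm4 (ENSMUSG00000063239, chromosome 17, 27422387 to 27521403, minus strand), a presynaptic receptor gene, had 898, 1023 and 971 normalized counts in WT and 947, 937 and 1163 in Hetero. Hetero 3 was the highest of all samples, and the other Hetero samples lay inside the WT range. The log2 change was 0.070 ± 0.096 (SE), with a 95% interval of the ratio from 0.904 to 1.22, and it was -0.031 without Hetero 3.

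Grm7 (ENSMUSG00000056755, chromosome 6, 110645581 to 111567230, plus strand) encodes a receptor of the presynaptic active zone that needs high glutamate. It had 2141, 1697 and 1672 normalized counts in WT and 1953, 2123 and 1335 in Hetero, so the genotypes were interleaved. Its coefficient of variation was 14.4% in WT and 23.0% in Hetero, the highest of the 6 genes in both. The log2 change was -0.045 ± 0.18 (SE), with a 95% interval of the ratio from 0.725 to 1.297. It was 0.16 without Hetero 3 and 0.071 without WT 1.

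Grm8 (ENSMUSG00000024211, chromosome 6, 27275119 to 28135178, minus strand), another presynaptic receptor gene and the least abundant member, had 411, 463 and 421 normalized counts in WT and 479, 376 and 378 in Hetero. Hetero held both the highest sample and the lowest pair. The log2 change was -0.078 ± 0.11 (SE), with a 95% interval of the ratio from 0.794 to 1.13. The limma adjusted p of each of the 6 members was 0.9996.

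**Figure D2:**
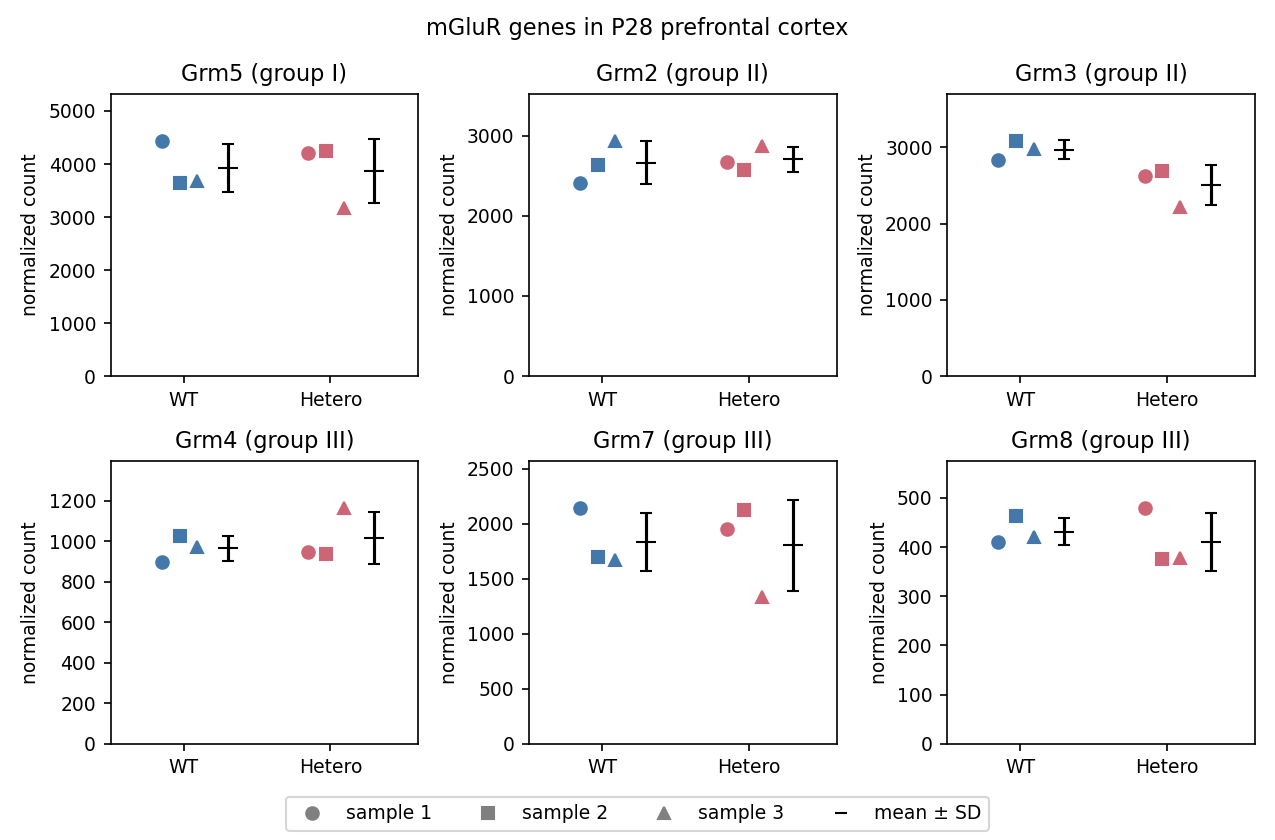
Normalized counts (y axis, from 0) of the 6 genes in WT (blue) and Hetero (red); each symbol is a sample, its shape gives the sample number, and the bar beside it is the mean ± SD (n = 3). Grm3 is the panel without overlap, with 2842 to 3089.7 in WT and 2212 to 2690.3 in Hetero.

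**Figure D3:**
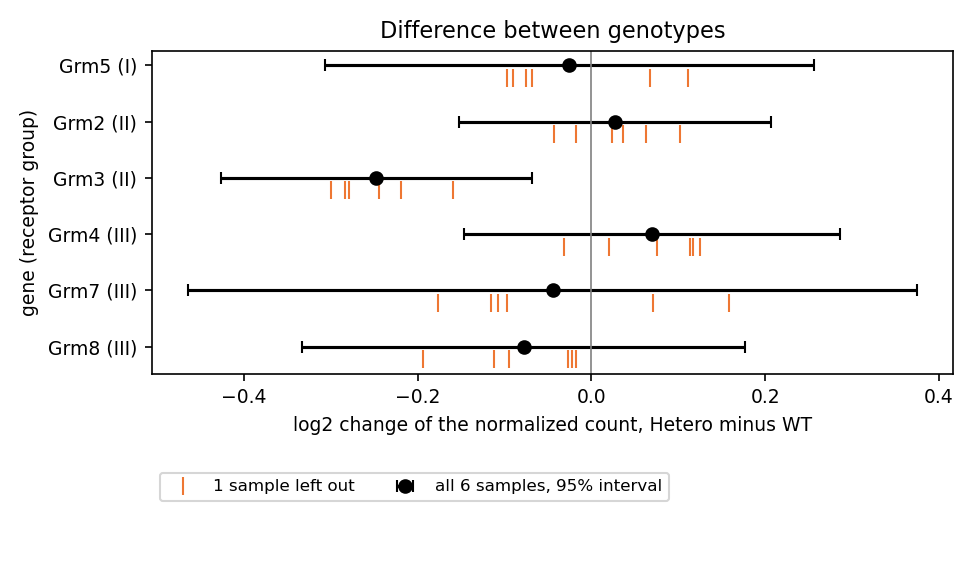
Log2 change of the normalized count between Hetero and WT (x axis) for each gene (y axis); points and bars are the limma estimate and its 95% interval with all 6 samples, and orange ticks are the estimates with 1 sample left out. The Grm3 ticks lie between -0.30 and -0.16, and as its groups do not overlap, leaving out a sample could not turn their sign. The Grm8 ticks also lie below 0, and the ticks of the other 4 genes fall on both sides.

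Among the members, Grm5, Grm7 and Grm4 varied together from sample to sample, Grm4 in the opposite direction. Grm5 and Grm7, which belong to different receptor groups, had log2 levels of 0.20 and 0.25 above their 6-sample means in WT 1, and 0.29 and 0.43 below them in Hetero 3. Grm4 was opposite, with -0.13 in WT 1 and 0.24 in Hetero 3. Across the 6 samples Grm5 and Grm7 had a Pearson r of 0.99 (exact permutation p = 0.0056, Benjamini-Hochberg adjusted p = 0.042 over 15 pairs) and a Spearman rho of 0.94 (exact permutation p = 0.017, adjusted p = 0.083). Without the 2 samples farthest from the median of Grm5 the r was 0.96.

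For Grm5 and Grm4 the r was -0.95 and rho was -1 (exact permutation p = 0.0028 and 0.0028, adjusted p = 0.042 and 0.042), and r was -0.86 without the farthest 2 samples. For Grm4 and Grm7 the r was -0.95 and rho -0.94 (exact permutation p = 0.0083 and 0.017, adjusted p = 0.042 and 0.083), and -0.80 without the 2 farthest. Without Hetero 3 the 3 values of r were 0.97, -0.91 and -0.86. They were 0.99, -0.98 and -0.97 on the deviations from group means. The labels give no batch within which to repeat them. The other 12 pairs did not pass by either coefficient, and the members of group II, Grm2 and Grm3, had an r of -0.28 and a rho of -0.14 (exact permutation p = 0.59 and 0.80, adjusted p = 0.80 and 0.92).

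**Figure D4:**
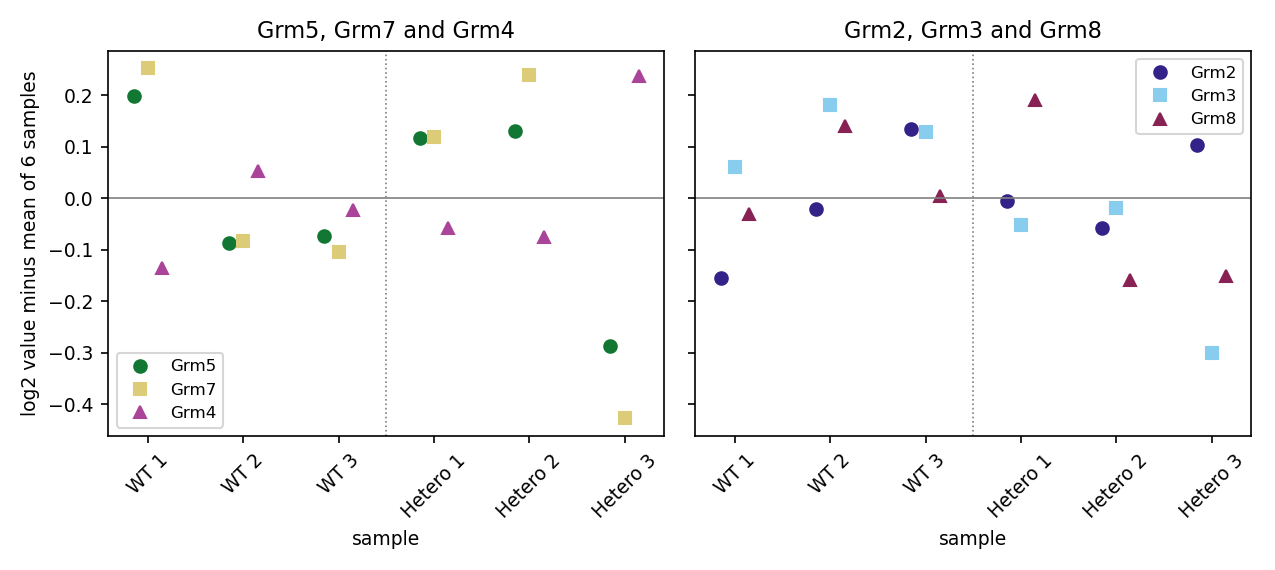
Log2 value of each gene minus its mean over the 6 samples (y axis) in each sample (x axis); each symbol is a gene, and the dotted line parts WT from Hetero. In the left panel Grm5 and Grm7 lie together and Grm4 on the other side of 0 in every sample, except that WT 3 has all 3 below 0; in the right panel Grm3 is above 0 in WT and below 0 in Hetero.

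Many other genes share these patterns. Among 11764 other coding genes with a mean of at least 100 normalized counts, 580 had an r of at least 0.9 with Grm5 and 641 with Grm7, against 226 with Grm4, 189 with Grm2, 136 with Grm3 and 55 with Grm8. The genes most like Grm5 over the 6 samples were Cul5, a ubiquitin ligase scaffold (r = 0.998), and Deptor, an mTOR inhibitor (r = 0.996). Those most like Grm7 were Mars2, a mitochondrial tRNA synthetase (r = 0.997), and Pura, a nucleic acid binding protein gene (r = 0.996). Grm4 was closest to Fndc4 (r = 0.997) and to Nefm, a neurofilament gene (r = 0.996), which had 7182 normalized counts in Hetero 3 and 5477 to 6309 elsewhere. Grm2 was closest to Rtel1, a DNA helicase gene (r = 0.996), and Arxes2 (r = 0.993). Grm3 was closest to Zmat3, a zinc finger gene (r = 0.991), which had 5233, 5382 and 5364 normalized counts in WT and 5180, 5192 and 4885 in Hetero, and to Hinfp (r = 0.989). Grm8 was closest to Phkg2, a phosphorylase kinase subunit (r = 0.996), and Taf6, a subunit of TFIID (r = 0.992). These are the best of many genes on 6 samples and serve as a description.

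The signalling partners of the receptors were read from a list of 109 genes, of which 108 were tested. None passed the adjusted threshold. At an unadjusted p under 0.05, 4 (3.70%) were higher and 11 (10.2%) lower in Hetero, where 1.66% and 2.17% of all tested genes were. The list was chosen with earlier results of these samples known, so its count is a description. The fitted change was below 0 for 70 and above 0 for 38, with a median of -0.023. Cyfip2 is 1 of the 11 lower genes. Hetero 3 had the lowest mean level of the list, -0.064 on the log2 scale, against -0.0099 to 0.042 in the other samples.

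Among the Gq effectors, which carry the signal of Grm5, 14 of 19 had a fitted change below 0. Plcb4, a phospholipase C beta gene, had 1962, 2198 and 1919 normalized counts in WT and 2454, 2709 and 2403 in Hetero, a log2 change of 0.32 ± 0.074 (SE) and an unadjusted limma p of 0.0017. All Hetero samples were above all WT samples. Itpr2, an inositol trisphosphate receptor, differed by -0.22 ± 0.086 (SE) without overlap. Of 16 G protein subunit genes 12 were below 0. Gng7, a gamma subunit, differed by -0.16 ± 0.064 (SE), Gng3 by 0.11 ± 0.058 and Gnao1, the Go alpha subunit used by groups II and III, by -0.074 ± 0.049.

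Of 14 Gi and Go effector genes 8 had a fitted change above 0 and 6 below. Adcy5, an adenylyl cyclase, had 5577, 5818 and 5479 normalized counts in WT and 4991, 4799 and 4850 in Hetero, so the groups stood apart by a wide gap. Its log2 change was -0.20 ± 0.051 (SE) with an unadjusted limma p of 0.0026. Adcy8, a calcium-stimulated cyclase, differed by 0.24 ± 0.11 (SE) and Kcnj9, a G-protein-gated potassium channel subunit, by 0.095 ± 0.050. Of 15 genes that end receptor or G protein signalling 13 were below 0. Grk4, a receptor kinase, differed by -0.53 ± 0.19 (SE) at a mean of 171 normalized counts in WT and 119 in Hetero, Rgs8 by -0.20 ± 0.084, and Rgs4, a regulator of Gq and Gi signalling, by 0.14 ± 0.054.

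Scaffold and partner genes were split, with 10 of 22 above 0 and 12 below. Cabp1, a calcium-binding protein, differed by 0.16 ± 0.057 (SE) with no overlap, Siah1b, which encodes a ubiquitin ligase, by 0.33 ± 0.14 at a mean of 102 normalized counts in WT and 128 in Hetero, and Gpr158, an orphan receptor of the same class, by 0.14 ± 0.061. In the list for translation-dependent depression, 7 of 12 were below 0, led by Cyfip2. App, the amyloid precursor gene, differed by 0.063 ± 0.042 (SE) and Map1b, an FMRP target, by -0.11 ± 0.085. Among 10 genes that supply or clear glutamate, 6 were below 0: Slc1a3 differed by -0.18 ± 0.067 (SE), Slc1a2, the main glial transporter, by -0.14 ± 0.057, and Slc17a7 by -0.10 ± 0.045. The limma adjusted p of these genes was 0.9996 each apart from Cyfip2.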

How the data were processed

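Stranded poly(A) libraries of 6 prefrontal cortex samples were sequenced, per the labels' protocols. The authors deposited 1 table of normalized counts per gene, used as a signal. The build GRCm38 and the tools DESeq2 1.19.11, Salmon 0.11.2 and R 3.6.0 appear in the submitters' processing notes, with no role given. The annotation and the scaling are not stated there. Whole multiples of 1 step (within 0.02) made up only 15.5% to 28.1% of values under 60, so no count test was run, and depth was estimated as column total over step. Of the identifiers, 17875 matched GENCODE M21 and 14 did not; coding sequences are from its transcripts. Of the members, Grm2 and Grm7 each overlap exons of an annotated antisense gene and Grm8 a miRNA, and none of those 3 genes is a row of the table.

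Values were analysed as log2(value + 1) for genes with a mean of at least 10, so changes of low genes are understated, with limma 3.58.1 in R 4.3.3 (intensity trend, robust, two-sided), adjusted by Benjamini-Hochberg over all tested genes. Exact permutation tests used scipy 1.17.1. Before use the fit was run on simulated data with noise drawn independently for each gene. Genes share sample patterns in these libraries, so that run checked the code and not the power to find changes here. Members, lists and alternatives were chosen with earlier results of these data known. Named are the members, Cyfip2, the 3 pathway genes of smallest p per subgroup, and the 2 genes most correlated with each member; 1 gene that this rule names is not reported here. The markers Slc17a7, Drd2, Gabra6 and Slc1a3 in the tissue and glial checks were picked after their values were seen.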

Additional observations from a re-analysis of the deposited data

How the results depend on the processing

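No member passed the adjusted threshold under any of its 15 alternatives; the smallest adjusted p was 0.61, for Grm3. Grm3 was lower in all 15 (-0.30 to -0.16), but its groups do not overlap, so leaving samples out could not turn its sign. The filter, trend and block settings left its estimate at -0.247, so the 15 are not separate support. Grm8 was lower in all 15 (-0.19 to -0.018). The labels do not say whether WT and Hetero samples of the same number are paired. Deviations of same-numbered samples from their group means correlated at -0.005, 0.004 and 0.23 for numbers 1, 2 and 3, which does not settle it. The replicate block, which treats the number as a pairing, gave 2 genes past the threshold, Cyfip2 and Jun, against 0 without it. It also gave 1 gene of the pathway list, Cyfip2. With both samples numbered 3 removed, the counts were 4 and 1. Leaving out 1 sample gave 0 to 1 genes (1 without WT 1, Rpl15-ps3, and 1 without Hetero 2, Gm10240) and 0 of the list. At an unadjusted p under 0.05 the block gave 788 genes, against 573.

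Signs turned for 4 members, at adjusted p of 0.93 or more. Leaving out WT 1 gave Grm5 0.068, Grm2 -0.043 and Grm7 0.071. Leaving out Hetero 3 gave Grm5 0.11, Grm2 -0.018, Grm4 -0.031 and Grm7 0.16. Removing both samples numbered 3 gave Grm5 0.068, Grm4 -0.025 and Grm7 0.095. Leaving out 1 sample at a time gave -0.097 to 0.11 for Grm5, -0.043 to 0.10 for Grm2, -0.031 to 0.12 for Grm4 and -0.18 to 0.16 for Grm7. The median change of all genes stayed within 0.0051 of 0 under each setting.

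Mean shares over the 6 samples for groups I, II and III were 16.2%, 61.7% and 22.1% with merged exons, 17.8%, 54.2% and 28.0% with the longest transcript, 19.4%, 47.8% and 32.8% with the median transcript, and 30.96%, 43.3% and 25.7% without division by length. Leaving out 1 sample they ranged over 15.8% to 16.5%, 61.1% to 62.3% and 21.8% to 22.5%.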
